A study of Mus musculus with 32 samples.

Results

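The effect of a high-protein diet (HPD) on epididymal white adipose tissue (eWAT) in the absence of corticosterone was taken from 8 of the 32 RNA-seq libraries of the study. These were 4 libraries from vehicle-treated (Veh) mice fed the HPD and 4 from Veh mice fed the normal-protein diet (NPD), chosen by their labels alone. All came from male C57BL/6J mice (C57BL/6 in the labels) that were 10 weeks old when the 7 days of the experiment began. All mice ate the NPD from 8 weeks of age. At 10 weeks they were kept on it or switched to the HPD, so only the HPD mice had a recent change of diet. That change cannot be told apart from the HPD itself. Protein supplied 60% of the energy in the HPD and 20% in the NPD, and the HPD held correspondingly less corn starch, so more protein and less carbohydrate cannot be told apart as the difference between the diets. Every Veh mouse, on either diet, drank water with the small amount of ethanol that served to dissolve corticosterone (Cort) for the treated mice. Each library was labelled as a separate replicate of its group. The other libraries used here were 8 from the eWAT of mice given Cort in the drinking water on the same diets (4 on each), and 7 from the liver of Veh mice (4 NPD and 3 HPD). Liver Veh HPD replicate 4 was left out of the tissue comparison.

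Epididymal fat stores triglyceride in adipocytes. Adipocytes make fatty acids from glucose through glycolysis and lipogenesis, take up fatty acids from lipoproteins, and release them again by lipolysis. Insulin drives the uptake of glucose and the storage of fat in these cells. The tissue also secretes hormones and binding proteins and holds stromal, vascular and immune cells, whose RNA was sequenced together with that of the adipocytes. In such bulk tissue, fewer cells of a type and less RNA per cell cannot be told apart.

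Total counts were between 13034283 and 18057936 per Veh library, and the transcripts were read from their 3′ ends. Adipocyte markers, such as Adipoq and Plin1, summed to between 29400 and 37790 CPM (counts divided by the TMM-scaled size of the library), and all 10 were detected. Epididymis and testis markers summed to no more than 9.88 CPM in the Veh libraries. Veh HPD replicate 4 stood apart from the other 7 along the first principal component, which held 20.4% of the variance. In this library the progenitor and stromal cell markers summed to 1035 CPM, against 1781 to 2562 CPM in the other Veh libraries. Among the Cort libraries, which share the estimate of the spread, Cort HPD replicate 4 held 24720 CPM of epididymis and testis transcripts. The counts of called genes in eWAT are therefore given with and without these libraries.

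In Veh mice 9 of 15187 genes tested (0.0593%) differed between the diets at an adjusted p-value under 0.05 (edgeR's quasi-likelihood test, Benjamini-Hochberg adjustment). Orm1, Gapdh, Fabp5, Hfe, Cryab, Itga7 and Tuba1b fell on the HPD (7 genes, 0.0461%), and Prlr and Inmt rose (2 genes, 0.0132%). The genes that fell were 1.497-fold to 2.26-fold higher on the NPD, while Prlr was 2.08-fold and Inmt 2.54-fold higher on the HPD. In each of the 9 genes the libraries of the diets did not overlap, which was also true of 650 of all genes tested (4.28%), 2.06% higher and 2.22% lower on the HPD. The count was 16 without Veh HPD replicate 4, 23 without Cort HPD replicate 4 and 39 without both. With library totals and no scaling factors it was 16, with 6 genes higher and 10 lower. Over all genes the median log2 change was 0.00, with 7527 genes above and 7659 below 0.

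**Figure D1:**
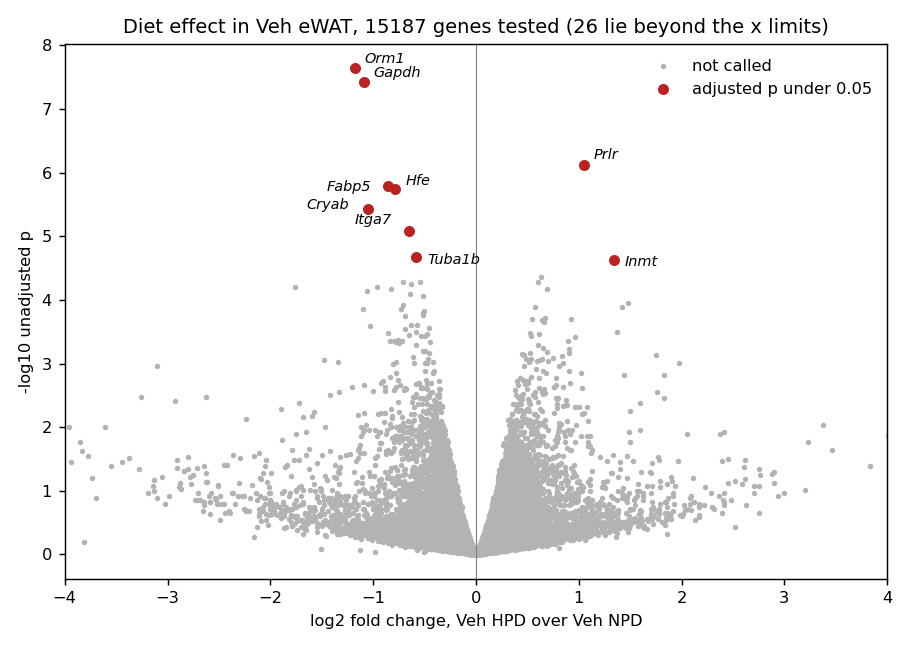
Each point is 1 of the 15187 genes tested, with the log2 change of Veh HPD over Veh NPD eWAT on the x axis and the unadjusted p-value (as -log10) on the y axis. The 9 called genes (red) lie at the top, 7 on the left and 2 on the right, and 26 genes lie outside the drawn range of the x axis.

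Inmt and Prlr, the genes that rose, and Gapdh, the glycolytic gene that fell, are shown with the 250 bases before a RefSeq transcription start. These genes show the calls in both directions. The sequences are from RefSeq (GRCm38.p6), which had an entry for 5 of the 9 called genes. The gene positions given below are from GENCODE, in which Gapdh, Inmt and Tuba1b begin further upstream. The whole Gapdh region and parts of the Inmt and Tuba1b regions therefore lie within those positions. Each sequence runs 5′ to 3′ along the strand of its gene. Capitals mark TATAAA (an element found before many transcription starts) and TTCNNNGAA (the motif of STAT factors, which act below the prolactin receptor), both searched on either strand, as was the E-box CACGTG. For Prlr, which has 3 annotated starts, the region with a match is given.
Inmt, chr6:55174991-55175240, minus strand: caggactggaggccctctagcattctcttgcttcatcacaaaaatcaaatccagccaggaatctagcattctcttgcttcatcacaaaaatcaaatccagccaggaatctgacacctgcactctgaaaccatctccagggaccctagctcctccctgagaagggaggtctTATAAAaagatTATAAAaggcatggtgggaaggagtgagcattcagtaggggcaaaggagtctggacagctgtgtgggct
Prlr, chr15:10223656-10223905, plus strand: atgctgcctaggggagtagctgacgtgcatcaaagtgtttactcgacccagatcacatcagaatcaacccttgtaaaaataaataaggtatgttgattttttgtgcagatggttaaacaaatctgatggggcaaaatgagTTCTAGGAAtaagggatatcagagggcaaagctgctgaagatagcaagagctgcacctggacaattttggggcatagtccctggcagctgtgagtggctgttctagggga
Gapdh, chr6:125165774-125166023, minus strand: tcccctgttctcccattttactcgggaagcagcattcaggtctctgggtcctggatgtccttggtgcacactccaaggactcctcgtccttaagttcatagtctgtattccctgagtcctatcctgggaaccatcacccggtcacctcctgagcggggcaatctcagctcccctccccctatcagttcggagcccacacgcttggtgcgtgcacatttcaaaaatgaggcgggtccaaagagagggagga
Inmt held 2 copies of TATAAA, from 80 to 75 and from 69 to 64 bases before its RefSeq start. Both copies also lie before the start of Inmt in GENCODE, at shorter distances. Prlr held 1 copy of TTCNNNGAA, from 110 to 102 bases before the RefSeq start used for the region shown. Among 32851 such regions of the mouse genome, 12.4% held TATAAA, 7.02% held TTCNNNGAA and 6.02% held CACGTG. None of the 3 motifs was found in the Gapdh region, in those of Hfe and Tuba1b, or before the other annotated starts of Prlr. The percentages are per region, while 3 regions were searched for Prlr and the one with a match was shown.

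Gapdh (chromosome 6, 125161715 to 125166467) encodes the glycolytic enzyme glyceraldehyde-3-phosphate dehydrogenase, which is often used as a reference gene. It was at 49.5, 70.1, 52.6 and 46.2 CPM in the Veh NPD libraries and at 24.9, 24.4, 26.5 and 27.1 CPM in the Veh HPD libraries. The HPD libraries were close together and all lay far below the lowest NPD library. On the log2 scale Gapdh fell by 1.08 (SE 0.14, edgeR adjusted p = 2.9e-04). Within the last 400 bases of its transcripts Gapdh resembled 113 other annotated genes by at least 95% over at least 100 bases, of which 106 were pseudogenes, and reads that match several genes may have been lost or split in the counting. Of these copies, 106 were listed in the raw counts, and together they held 5.44 to 11.5 CPM per Veh library. With their counts added, the log2 change of Gapdh was -0.99 (edgeR adjusted p = 0.0017). Reads that were lost in the counting cannot return in this sum.

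Fabp5 (chromosome 3, 10012548 to 10016607) encodes a fatty acid binding protein that carries fatty acids in the cytosol of adipocytes, macrophages and endothelial cells. Its levels were 106.5, 97.5, 133 and 115 CPM in Veh NPD and 58.6, 49.7, 61.0 and 79.8 CPM in Veh HPD. Every HPD library was below every NPD library, with Veh HPD replicate 4 the highest of its group. The log2 change was -0.86 (SE 0.14, edgeR adjusted p = 0.0054).

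Inmt (chromosome 6, 55170626 to 55175043) encodes an N-methyltransferase that transfers methyl groups from S-adenosylmethionine to indolamines such as tryptamine. It was at 114, 74.8, 69.7 and 84.1 CPM in Veh NPD and at 175, 225, 167 and 302 CPM in Veh HPD. All HPD libraries were above all NPD libraries, but the spread was wide on the HPD, where replicate 4 was the highest. The increase of 1.34 on the log2 scale (SE 0.23, edgeR adjusted p = 0.041) was close to the threshold. Inmt missed the threshold when any single one of Veh NPD replicates 2, 3 and 4 and Veh HPD replicates 2 and 4 was dropped (log2 change 1.14 to 1.33, edgeR adjusted p = 0.078 to 0.14).

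Prlr (chromosome 15, 10177238 to 10349180) encodes the prolactin receptor, a cytokine receptor that signals through JAK2 and STAT5. Its levels were 37.4, 37.2, 30.2 and 42.7 CPM in Veh NPD and 70.6, 65.5, 56.9 and 114 CPM in Veh HPD. The groups were separate, and Veh HPD replicate 4 was again the highest library. Prlr rose by 1.05 on the log2 scale (SE 0.16, edgeR adjusted p = 0.0038), and by 0.80 when replicate 4 was left out, which was the lowest value of the 8 fits that each left out a Veh library and was still called.

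Orm1 (chromosome 4, 63344560 to 63348163) encodes orosomucoid 1, a lipocalin of the acute phase that the liver and fat secrete. It was at 364, 303, 397 and 349.8 CPM in Veh NPD and at 145, 161, 214 and 105 CPM in Veh HPD. No HPD library reached the NPD range, and the lowest level was in Veh HPD replicate 4. Orm1 had the smallest p-value of all genes, with a fall of 1.18 on the log2 scale (SE 0.15, edgeR adjusted p = 2.9e-04). Its near-identical neighbour Orm2 was at no more than 1.92 CPM in any Veh library. Albumin (Alb), the defining product of hepatocytes, was at 47.1 to 68.5 CPM in Veh NPD and 31.4 to 70.8 CPM in Veh HPD, so the groups overlapped for this marker.

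Hfe (chromosome 13, 23702034 to 23710854) encodes a membrane protein related to MHC class I that takes part in the sensing of iron. Its levels were 96.9, 71.9, 104 and 96.8 CPM in Veh NPD and 51.4, 50.5, 63.2 and 49.4 CPM in Veh HPD. The groups did not overlap, and the library nearest to the NPD range was Veh HPD replicate 3. The log2 change was -0.79 (SE 0.13, edgeR adjusted p = 0.0054).

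Cryab and Itga7 also fell. Cryab (chromosome 9, 50751325 to 50756636), a small heat shock protein abundant in lens and muscle, was at 199, 248, 227 and 280 CPM in Veh NPD and at 87.0, 123, 173 and 76.4 CPM in Veh HPD, a log2 change of -1.05 (SE 0.18, edgeR adjusted p = 0.0095). Itga7 (chromosome 10, 128933818 to 128958282), the integrin subunit that binds laminin in muscle, was at 112, 99.6, 104 and 111 CPM in Veh NPD and at 67.4, 67.1, 60.0 and 77.5 CPM in Veh HPD, a log2 change of -0.65 (SE 0.12, edgeR adjusted p = 0.018). In Itga7 the libraries of a diet lay close together, while in Cryab Veh HPD replicate 3 came near the NPD range. Markers of smooth muscle and pericytes summed to 446, 563, 719 and 535 CPM in Veh NPD and to 495, 602, 474 and 247 CPM in Veh HPD. Those of skeletal muscle summed to 118, 201, 92.9 and 65.9 CPM and to 33.5, 94.1, 89.8 and 24.97 CPM. Both sums overlapped between the diets and were lowest in Veh HPD replicate 4, and their part in these decreases was not tested.

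Tuba1b (chromosome 15, 98931425 to 98934565) encodes a widely expressed alpha-tubulin. It was at 582, 586, 537 and 642 CPM in Veh NPD and at 395, 347, 437 and 389 CPM in Veh HPD. The lowest NPD library was above the highest HPD library. The log2 change was -0.58 (SE 0.11, edgeR adjusted p = 0.040). Tuba1a is named here because it matched 243 of the last 400 bases of Tuba1b transcripts at 99.6% identity. Where this match lies in Tuba1a was not examined. Tuba1a was at 619, 610, 843 and 1092 CPM in Veh NPD and at 350, 289, 479 and 134 CPM in Veh HPD, which also did not overlap. Alone Tuba1a did not pass the test (log2 change -1.34, edgeR adjusted p = 0.16). When Tuba1b was summed with Tuba1a and its other copies listed in the raw counts, the log2 change was -0.94 (edgeR adjusted p = 0.0045).

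**Figure D2:**
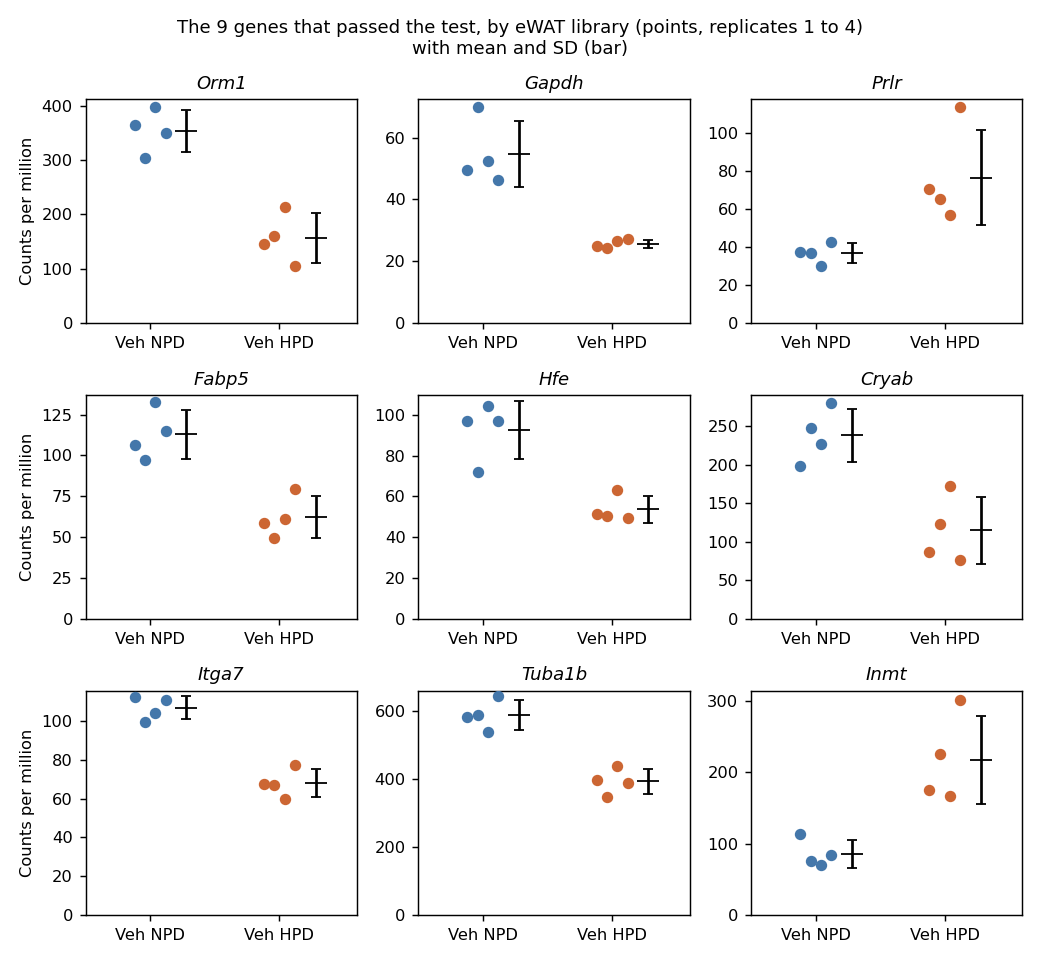
Each panel gives 1 of the 9 called genes, with its level in CPM in the 4 Veh NPD (blue) and 4 Veh HPD (orange) libraries as points, ordered from replicate 1 to 4, and the mean with its SD as a bar. In every panel the diets are separate, and Prlr and Inmt are the panels in which the HPD libraries are higher.

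Of the genes without overlap between the diets that did not pass, the 5 in each direction with the smallest p-value were followed. Insr, the insulin receptor, was at 53.0, 43.0, 46.1 and 48.7 CPM in Veh NPD and at 70.4, 80.1, 71.1 and 74.6 CPM in Veh HPD. The HPD libraries were close to each other, yet the log2 change of 0.63 (SE 0.13) had an adjusted p of 0.058 by edgeR. Cp (ceruloplasmin, a copper-carrying ferroxidase) had a log2 change of 0.60 and Fnip1, a partner of folliculin in nutrient sensing, of 0.69, each with an adjusted p of 0.058. Ifit3, an interferon-induced gene, was at 10.6 to 18.8 CPM in Veh NPD and at 52.6, 19.6, 28.9 and 73.8 CPM in Veh HPD (log2 change 1.47, edgeR adjusted p = 0.074). The transcription regulator gene Zfp503 had a log2 change of 0.57 (edgeR adjusted p = 0.080). Lower on the HPD without passing were Lgals1 (galectin 1), Fads3 (a fatty acid desaturase), Cib2 (a calcium and integrin binding protein), Aldh1a7 (an aldehyde dehydrogenase) and Ncan (neurocan, a proteoglycan). Lgals1, the most abundant of these, was at 1940, 2036, 1821 and 1925 CPM in Veh NPD and at 1224, 1182, 1425 and 1450.0 CPM in Veh HPD. The log2 fold changes of the 5 genes were between -1.76 for Ncan and -0.55 for Lgals1, each with an adjusted p of 0.058 by edgeR. Ncan was at 0.843 to 7.99 CPM in all Veh libraries, so that its change rests on few counts.

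The glycolysis list showed 12 of 17 members below and 5 above 0, with a median log2 change of -0.22. Gapdh was its only called member with all 16 eWAT libraries, the fit to which the calls of list members refer. Some other fits called further members of this list and of others. Dgat2, Rbp4 and Gpx3, described below, were called by both DESeq2 and limma voom with quality weights. Tpi1 (triosephosphate isomerase), the enzyme next to Gapdh in the pathway, was at 166, 168, 151 and 174 CPM in Veh NPD and at 124, 101.5, 111 and 125 CPM in Veh HPD, without overlap (log2 change -0.51, SE 0.12, edgeR adjusted p = 0.086). Pfkp, a phosphofructokinase, also did not overlap, with 42.2 to 72.8 CPM against 33.2 to 39.7 CPM (log2 change -0.61, edgeR adjusted p = 0.16). Ldha, which makes lactate, was at 324 to 448 CPM and at 188 to 332 CPM (log2 change -0.59, edgeR adjusted p = 0.11). Without Veh HPD replicate 4 the median of the list was -0.40. Ldha was then called among 16 genes (log2 change -0.70, edgeR adjusted p = 0.017). So was the glycolytic gene Aldoa (log2 change -0.64, edgeR adjusted p = 0.0052). Tpi1 and Ldha were also among the 126 genes called by DESeq2 and the 54 called by limma voom with quality weights, and Pfkp was called by DESeq2. The carbohydrate-sensing genes around ChREBP had a median of -0.03 over 16 members, with none called. The fructose transporter gene Slc2a5 was at 0.403 to 2.27 CPM on the NPD and was listed at 0 in 3 of the 4 HPD libraries, with a level too low for a fold change to be read.

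With all libraries, genes of fatty acid synthesis had a median log2 change of -0.50, the lowest of the 28 gene lists. Of its members tested, 18 of 19 were below 0 and none was called. Without Veh HPD replicate 3 the median was -0.40. Those of MHC class II presentation (-0.59), extracellular matrix (-0.52) and cholesterol synthesis (-0.41) were then lower. Scd2, a stearoyl-CoA desaturase, was at 196, 179, 217 and 364 CPM in Veh NPD and at 134, 43.6, 89.0 and 113 CPM in Veh HPD. The diets did not overlap, and the log2 change was -1.33 (SE 0.36, edgeR adjusted p = 0.26). Slc25a1, the carrier that exports citrate from mitochondria, was at 506, 479, 316 and 429 CPM and at 262, 154, 175 and 375 CPM (log2 change -0.84, edgeR adjusted p = 0.22). Elovl5, a fatty acid elongase, and Me1 (malic enzyme, a source of NADPH) had log2 fold changes of -0.41 and -0.78 (edgeR adjusted p = 0.35 and 0.41). Veh HPD replicate 4 was nearest to the NPD levels in Slc25a1, and in Me1 its 406 CPM lay within the NPD range of 321 to 497 CPM. Without this library Slc25a1 was called among 16 genes (log2 change -1.14, edgeR adjusted p = 0.012). Scd2, Slc25a1 and Me1 were among the 54 genes called by limma voom with quality weights.

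Cholesterol synthesis had a median log2 change of -0.40, with 22 of 25 members below 0 and none called. Hmgcs1, which makes HMG-CoA in the cytosol, was at 166, 137, 232 and 228 CPM in Veh NPD and at 116, 90.0, 142 and 78.3 CPM in Veh HPD. Only Veh HPD replicate 3 reached into the NPD range (log2 change -0.84, SE 0.20, edgeR adjusted p = 0.12). The later enzymes Nsdhl, Mvd and Tm7sf2 did not overlap between the diets and were lower on the HPD, with Nsdhl at 44.7 to 59.8 CPM and at 17.1 to 40.7 CPM. In the opposite direction, 1 member of the list was higher on the HPD without overlap. Hmgcs1 and Nsdhl were called by DESeq2 and by limma voom with quality weights. Without Veh HPD replicate 3 Hmgcs1 was called among 64 genes (log2 change -1.01, edgeR adjusted p = 0.023). Across the fits that each left out a Veh library, the median stayed between -0.52 and -0.30 for cholesterol synthesis and between -0.54 and -0.33 for fatty acid synthesis.

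The triglyceride synthesis list had a median of 0.13 (16 members) and the lipolysis and lipid droplet list of -0.02 (20 members), with none called in either. Without Veh HPD replicate 4 the former was -0.01. Dgat2, which adds the last fatty acid to triglyceride, was at 1185, 921, 1240 and 1905 CPM in Veh NPD and at 837, 545, 951 and 738 CPM in Veh HPD (log2 change -0.77, edgeR adjusted p = 0.12). Veh HPD replicate 3 was slightly above the lowest NPD library, so the groups overlapped. Plin2, a lipid droplet coat protein, was at 222 to 326 CPM and at 187 to 212 CPM without overlap (log2 change -0.33, edgeR adjusted p = 0.42). Fatty acid oxidation and PPAR targets had a median of -0.10 over 25 members, the citric acid cycle and pyruvate genes of -0.03 over 28 and the respiratory chain of -0.08 over 58, with none called. Without Veh HPD replicate 4 the last 2 medians were -0.20 and -0.26, and without replicate 3 they were 0.03 and -0.02. Within the pyruvate genes, Mpc1, a subunit of the mitochondrial pyruvate carrier, was at 52.2 to 58.7 CPM and at 33.8, 32.1, 34.1 and 52.0 CPM (log2 change -0.56, edgeR adjusted p = 0.31). Here Veh HPD replicate 4 was near the NPD level, while the other 3 were far below it.

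The diets differed in protein content, so genes of amino acid use were listed in 4 groups. Branched-chain amino acid breakdown had a median of 0.13 (18 of 24 members above 0), other amino acid breakdown of 0.06 (29 members), amino acid transporters of -0.05 (26 members) and the ATF4 response with serine synthesis of 0.05 (22 members). No member was called. Prodh, which begins the breakdown of proline, was at 22.5, 23.3, 19.1 and 33.0 CPM in Veh NPD and at 31.7, 42.4, 36.4 and 75.4 CPM in Veh HPD (log2 change 0.92, SE 0.21, edgeR adjusted p = 0.089). Gpt2, the mitochondrial alanine aminotransferase, did not overlap between the diets, at 144 to 182 CPM and at 187 to 313 CPM (log2 change 0.50, edgeR adjusted p = 0.24). Phgdh, which begins serine synthesis, was at 71.4 to 104 CPM on the NPD and at 49.6 to 67.7 CPM on the HPD, also without overlap (log2 change -0.46, edgeR adjusted p = 0.28). The branched-chain aminotransferase Bcat2 was at 34.3 to 50.9 CPM on the NPD and at 57.4, 54.2, 46.0 and 143 CPM on the HPD, where replicate 4 was far above the others (log2 change 0.80, edgeR adjusted p = 0.41). Without this library the median of the branched-chain list was -0.02. In the list of methyl transfer and NAD metabolism (21 members, median 0.05) Inmt was the only called gene. Gamt, which makes creatine by methyl transfer, was at 46.0 to 76.0 CPM and at 28.7 to 44.5 CPM without overlap (log2 change -0.69, edgeR adjusted p = 0.088).

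**Figure D3:**
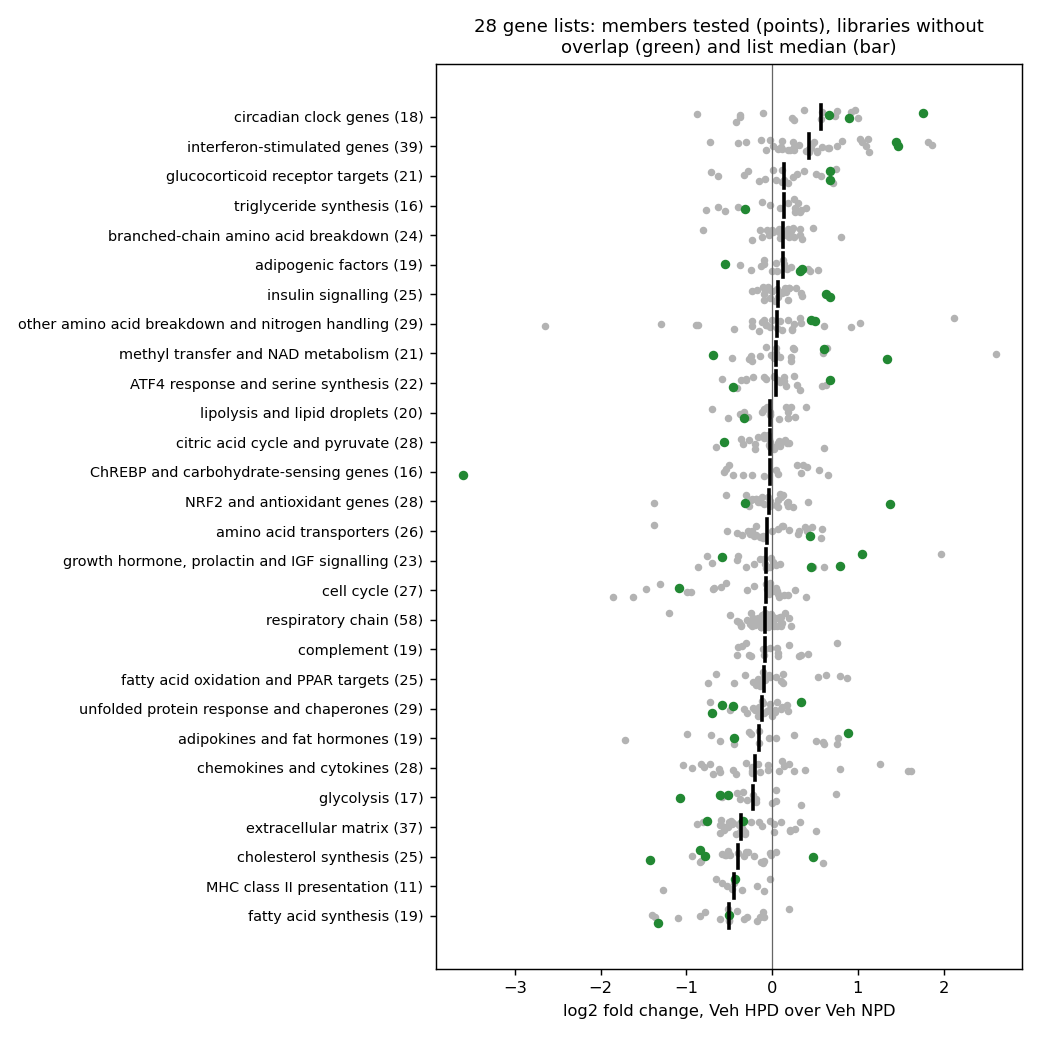
Each row is 1 of the 28 gene lists with the number of members tested in brackets, each point the log2 change of a member in Veh HPD over Veh NPD eWAT, green where the libraries do not overlap, and the black bar the median. Medians run from -0.50 for fatty acid synthesis to 0.57 for circadian clock genes.

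Hormone signalling genes gave Prlr as the only call among 23 members of the growth hormone, prolactin and IGF list (median -0.07) and none among 25 members of the insulin signalling list (median 0.07). Socs3 and Cish, feedback inhibitors of cytokine receptors such as that of prolactin, had log2 fold changes of 0.79 and 1.97 (edgeR adjusted p = 0.32 and 0.16). Cish was at 2.97 to 5.72 CPM on the NPD and at 7.55, 4.70, 42.4 and 14.9 CPM on the HPD, where replicate 3 was far above the other libraries and replicate 2 lay in the NPD range. Pik3r1, the regulatory subunit of PI3 kinase, was at 99.8, 152, 172 and 141 CPM in Veh NPD and at 308, 179, 221 and 197 CPM in Veh HPD, without overlap (log2 change 0.68, edgeR adjusted p = 0.20).

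Among the adipokines and fat hormones (19 members tested, median -0.15, none called), Rbp4, the carrier of retinol, was at 918, 971, 896 and 912 CPM in Veh NPD and at 669.8, 632, 715 and 681 CPM in Veh HPD. The groups were tight and separate (log2 change -0.45, SE 0.11, edgeR adjusted p = 0.11). Mest, a gene linked to the expansion of fat, was at 81.2, 133, 239 and 203 CPM and at 26.5, 52.7, 90.2 and 29.3 CPM (log2 change -1.72, edgeR adjusted p = 0.30), with replicate 3 of Veh HPD inside the NPD range. The adipogenic factors had a median of 0.13 over 19 members, and of -0.01 without Veh HPD replicate 4. Nfia and Ebf1, which act early in adipocyte development, did not overlap between the diets, with log2 fold changes of 0.35 and 0.33 (edgeR adjusted p = 0.35 and 0.41). In the opposite direction, 1 member of the list was lower on the HPD without overlap.

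The circadian clock genes had the highest median of the lists with all libraries, 0.57, with 13 of 18 members above 0 and none called. Per3, Tef and Dbp did not overlap between the diets. Dbp, a transcription factor driven directly by the clock, was at 9.39, 19.4, 7.06 and 6.06 CPM in Veh NPD and at 21.96, 20.7, 20.6 and 78.9 CPM in Veh HPD. Veh HPD replicate 4 was far above the other HPD libraries, which were close to each other (log2 change 1.76, SE 0.49, edgeR adjusted p = 0.27). Per3 was at 21.6 to 30.5 CPM and at 35.5 to 49.2 CPM (log2 change 0.66, edgeR adjusted p = 0.14). Without replicate 4 the median of the list was 0.23 and no longer the highest, since that of the interferon-stimulated genes was then 0.33. The glucocorticoid receptor targets had a median of 0.14 over 21 members and none called. Klf9 was at 395 to 542 CPM and at 548 to 1004 CPM, without overlap (log2 change 0.67, edgeR adjusted p = 0.089).

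Interferon-stimulated genes had a median log2 change of 0.43, with 33 of 39 members above 0 and none called. Irf7, a transcription factor of the response, was at 6.73, 15.2, 14.9 and 9.58 CPM in Veh NPD and at 42.8, 20.2, 15.9 and 46.6 CPM in Veh HPD (log2 change 1.44, edgeR adjusted p = 0.21). As with Ifit3, replicates 1 and 4 of Veh HPD were the high libraries and replicates 2 and 3 were nearer to the NPD. The median of the list was between 0.17 and 0.56 when a Veh library was left out. MHC class II presentation had a median of -0.45, with 11 of 11 members below 0 and none called. Its gene H2-Ab1 was at 406, 377, 346 and 347 CPM in Veh NPD and at 268, 269, 367 and 178 CPM in Veh HPD (log2 change -0.45, SE 0.16, edgeR adjusted p = 0.38), with replicate 3 inside the NPD range. Macrophage markers summed to 2564 to 3201 CPM on the NPD and to 2228 to 2975 CPM on the HPD, and dendritic cell markers to 24.3 to 43.5 CPM and 24.3 to 39.1 CPM. Both were lowest on the HPD in replicate 4, and their part in the class II values was not tested. Chemokines and cytokines (28 members) and complement (19 members) had medians of -0.19 and -0.08, with no call.

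The extracellular matrix list had a median of -0.36, with 29 of 37 members below 0 and none called. Sparc, a matrix glycoprotein, was at 4818, 4117, 6102 and 5564 CPM in Veh NPD and at 3551, 3282, 4919 and 2321 CPM in Veh HPD (log2 change -0.55, SE 0.16, edgeR adjusted p = 0.24). Serpinh1, the collagen chaperone, did not overlap, at 234 to 339 CPM and at 94.8 to 205 CPM (log2 change -0.76, edgeR adjusted p = 0.30). In both, replicate 3 was the highest HPD library and replicate 4 the lowest. The markers of progenitor and stromal cells, which make much of this matrix, summed to 1802, 1781, 2562 and 2116 CPM in Veh NPD and to 1925, 1876, 2069 and 1035 CPM in Veh HPD. The 11 marker genes had a median log2 change of 0.01. Their part in the matrix values was not tested. Dropping Veh HPD replicate 4 moved the matrix median to -0.16, and dropping replicate 3 moved it to -0.52.

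The unfolded protein response and chaperones had a median of -0.12 over 29 members, antioxidant genes of -0.04 over 28 and the cell cycle of -0.07 over 27, with no call. Gpx3, the secreted glutathione peroxidase, was at 864, 661, 369 and 531 CPM in Veh NPD and at 1206, 1185, 1349 and 2515 CPM in Veh HPD. All HPD libraries were above all NPD libraries, and replicate 4 was the highest (log2 change 1.37, SE 0.29, edgeR adjusted p = 0.11). Manf, a chaperone of the endoplasmic reticulum, was at 65.0 to 113 CPM and at 50.3 to 59.3 CPM (log2 change -0.70, edgeR adjusted p = 0.25). Of the other cell types, endothelial markers summed to 598 to 1127 CPM and 626 to 855 CPM, mesothelial markers to 151 to 282 CPM and 148 to 201 CPM, and red blood cell markers to 3893 to 7138 CPM and 5257 to 9281 CPM. All these sums overlapped between the diets. Exocrine pancreas markers, at a low level, summed to 8.52 to 13.4 CPM on the NPD and to 5.33 to 7.78 CPM on the HPD, without overlap.

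Whether Cort altered the diet effect was asked with the 8 Cort eWAT libraries, which are separate from the Veh libraries. Among Cort mice 74 of 15187 genes (0.487%) were called between the diets, 31 higher and 43 lower, and Gapdh and Fabp5 were among them. Dropping Cort HPD replicate 4 gave 41 calls, dropping Veh HPD replicate 4 gave 124 and dropping both gave 94. The count was 26, 47, 42 and 30 without Cort NPD replicates 1, 3 and 4 and Cort HPD replicate 3. With no scaling factors it was 73, with 39 higher and 34 lower. Gapdh and Fabp5 were called in each of these fits. Gapdh was at 63.6 to 81.5 CPM in Cort NPD and at 33.9 to 45.3 CPM in Cort HPD (log2 change -0.89, SE 0.14, edgeR adjusted p = 0.0020), and Fabp5 at 135 to 163 CPM and at 64.4 to 83.9 CPM (log2 change -0.92, SE 0.14, edgeR adjusted p = 0.0013). These genes thus fell on the HPD under either treatment. Cryab, Itga7 and Inmt did not overlap between the diets in Cort mice, as was true of 6.66% of all genes tested (10.3% without Cort HPD replicate 4, which leaves 3 libraries on the HPD), and did not pass, with log2 fold changes of -0.60, -0.42 and 0.93 (edgeR adjusted p = 0.16, 0.13 and 0.11). Every Cort library was above every Veh library in Cryab, at 851 to 918 CPM on the NPD and 543 to 628 CPM on the HPD.

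Prlr, Hfe and Tuba1b overlapped between the diets in Cort mice. Tuba1b was at 631 to 715 CPM in Cort NPD and at 533 to 681 CPM in Cort HPD (log2 change -0.15, SE 0.11, edgeR adjusted p = 0.71). Prlr was at 66.0, 61.1, 69.0 and 68.0 CPM in Cort NPD and at 68.1, 80.0, 70.1 and 61.1 CPM in Cort HPD (log2 change 0.08, SE 0.16). Both Cort groups lay within the Veh HPD range of 56.9 to 114 CPM and above the Veh NPD range. Hfe was at 64.9 to 78.2 CPM in Cort NPD and at 65.0 to 76.3 CPM in Cort HPD (log2 change -0.03, SE 0.13), above every Veh HPD library and below 3 of the 4 Veh NPD libraries. Orm1 did not overlap between the diets, at 471 to 558 CPM and at 366 to 428 CPM, and every Cort HPD library was above every Veh HPD library (log2 change -0.35, SE 0.15, edgeR adjusted p = 0.41). The difference of the diet effects, Cort minus Veh, was 0.82 for Orm1 (SE 0.21), -0.97 for Prlr (SE 0.23) and 0.76 for Hfe (SE 0.18), with adjusted p of 0.50, 0.40 and 0.40 in the interaction test of edgeR. None of the 9 genes passed that test.

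The interaction test called 2 of 15187 genes (0.0132%), H2-Ab1 and Syn2, and 784 had an unadjusted p-value under 0.05. It called 1 gene when Veh HPD replicate 4 was dropped and 1 when both libraries 4 were dropped. Dropping Cort HPD replicate 4 alone left 0 calls in edgeR, where 720 genes had unadjusted p-values below 0.05. H2-Ab1 encodes the beta chain of a class II molecule, and was at 15.8, 21.8, 15.9 and 18.5 CPM in Cort NPD and at 31.8, 30.2, 39.4 and 37.6 CPM in Cort HPD. The Cort levels were thus far below those of the Veh mice given above, and were higher on the HPD without overlap. The difference of the diet effects was 1.40 (SE 0.23, edgeR adjusted p = 0.024). Syn2, a synapsin gene, was at 9.88, 12.7, 9.95 and 11.6 CPM in Veh NPD and at 15.3, 20.7, 13.4 and 16.7 CPM in Veh HPD. In Cort mice the order was the opposite, with 49.2 to 63.3 CPM on the NPD and 31.2 to 38.0 CPM on the HPD, and the difference of the diet effects was -1.28 (SE 0.22, edgeR adjusted p = 0.033). Both calls were lost in some of the fits that left out a library.

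In the liver of Veh mice 29 of 16482 genes (0.176%) were called between the diets, and none of the 9 genes of eWAT was among them. Gapdh was at 68.9, 67.5, 56.8 and 70.9 CPM in liver on the NPD and at 109.9, 95.04 and 63.8 CPM on the HPD (log2 change 0.44, SE 0.18, edgeR adjusted p = 0.52). The liver values overlapped and leaned the other way from eWAT. A test of the diet effect in eWAT minus that in liver called 7 of 16482 genes (0.0425%), and Gapdh was the only one of them that was also called in eWAT (difference -1.54, SE 0.25, edgeR adjusted p = 0.0030). Orm1, abundant in liver at 1121 to 1763 CPM over both diets, had a difference of -1.20 (SE 0.25, edgeR adjusted p = 0.065), which did not pass. Csad, an enzyme on the way from cysteine to taurine, had the smallest p-value of that test. It was at 372, 301, 299 and 256 CPM in Veh NPD and at 410, 436, 381 and 455 CPM in Veh HPD eWAT, and at 113 to 161 CPM and 33.3 to 40.5 CPM in liver (difference 2.40, SE 0.25, edgeR adjusted p = 4.2e-07). With the left-out liver library the difference was 1.68 and did not pass. In eWAT alone the log2 change of Csad was 0.45 (SE 0.13, edgeR adjusted p = 0.23). Ctsl, Nbdy, Cryzl2, Atf3 and Vamp3 had differences between -3.59 and -0.96, and of these Atf3 was at 2.53 to 6.48 CPM in all Veh eWAT libraries with no separation of the diets.

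**Figure D4:**
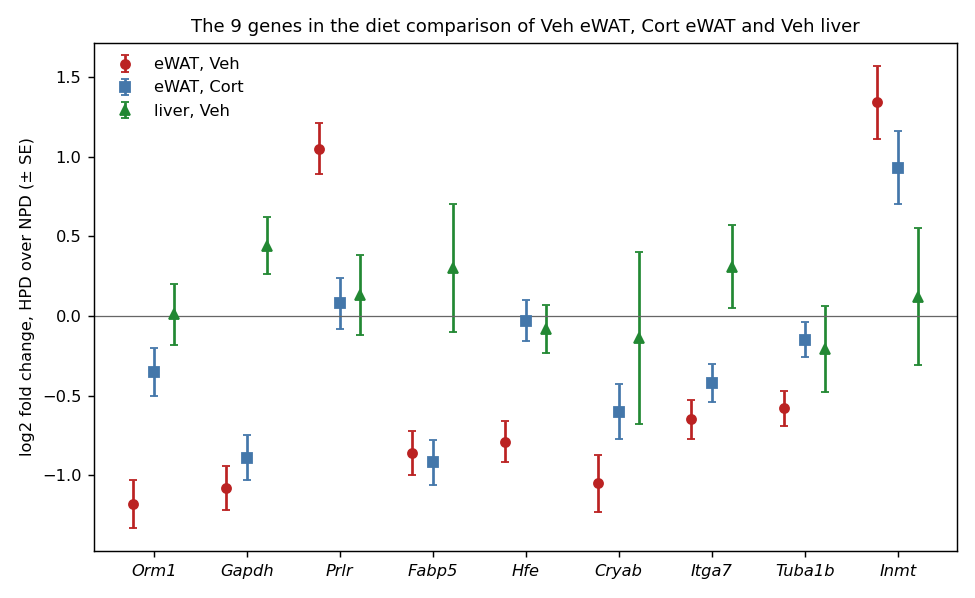
Points are the log2 fold changes of HPD over NPD for the 9 called genes, with their SE as bars, in Veh eWAT (red), Cort eWAT (blue) and Veh liver (green). Gapdh and Fabp5 lie at similar values in Cort and Veh eWAT, while Prlr, Hfe and Tuba1b are at 0.08, -0.03 and -0.15 in Cort eWAT.

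The number of called genes depended on the library left out. It was 64 without Veh HPD replicate 3 (20 higher and 44 lower) and 5 without Veh NPD replicate 4, and all 9 genes were among the 64. Among the 64 were Kcnj15, Hist1h4h, Alas1, Klf9 and Znfx1, which were not called with all libraries. Kcnj15, a potassium channel gene, was at 65.0, 73.6, 82.4 and 67.0 CPM in Veh NPD and at 36.4, 33.5, 59.2 and 32.8 CPM in Veh HPD, so that replicate 3 lay between the other HPD libraries and the NPD. Alas1, the first enzyme of heme synthesis, was at 120, 140, 95.8 and 132 CPM and at 215, 187, 119 and 330 CPM, with replicate 3 inside the NPD range. The log2 fold changes with all libraries were -0.83 and 0.80 (edgeR adjusted p = 0.058 and 0.18), and without replicate 3 they were -1.07 and 1.0 (edgeR adjusted p = 9.0e-04 and 0.0025). Orm1 and Gapdh were called in all 27 other fits, and Prlr and Fabp5 in 26 of them. Tuba1b was lost in 14, Inmt in 10, Itga7 in 6, Cryab in 3 and Hfe in 2. Several of these fits left out only a Cort library and kept every Veh library. The fit with only the 8 Veh libraries kept 3 of the 9 genes, Orm1, Gapdh and Inmt. Prlr and Fabp5 were lost there (edgeR adjusted p = 0.074 each), as were Hfe, Cryab, Itga7 and Tuba1b.

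**Figure D5:**
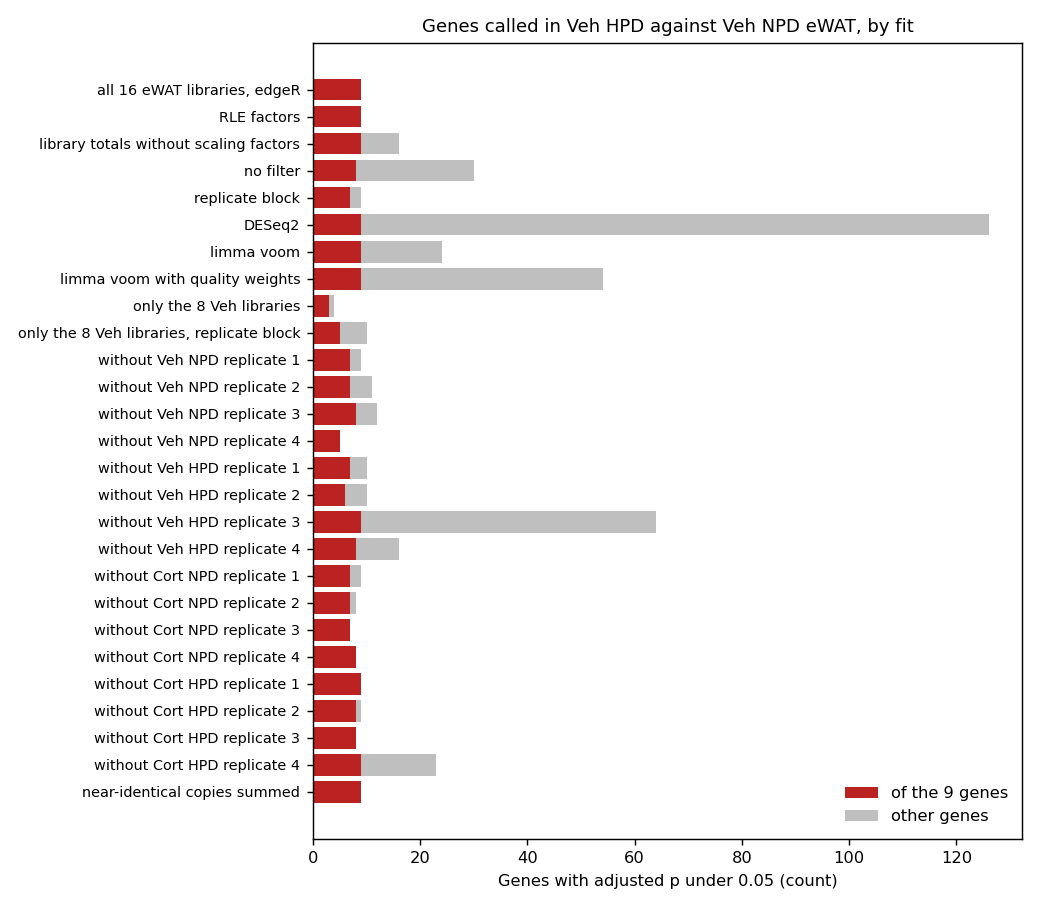
Bars give the number of genes called in Veh HPD against Veh NPD eWAT in the fits named on the y axis, in red those among the 9 genes and in grey other genes. The bars run from 4 genes with only the 8 Veh libraries to 126 with DESeq2, and the fit without Veh HPD replicate 3 has 64.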

How the data were processed

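The authors prepared 3′ mRNA libraries (QuantSeq) from flash-frozen tissue and deposited 1 table of raw read counts per Ensembl gene. The submitters' processing notes name GRCm38, mm10, R 4.0.3 and limma. The aligner, the counting program and the handling of reads with several matches are not given in the sources used here. Counts were tested with edgeR 4.0.16 (R 4.3.3) by its quasi-likelihood test with TMM factors, after genes with low counts were removed by filterByExpr (minimum count 10, minimum total 15). The 16 eWAT libraries were fitted with 1 mean per group, and 31 libraries of both tissues were fitted for the tissue difference. Liver Veh HPD replicate 4 was left out there, following an earlier analysis of these data; no source read here names the library as an outlier, and a fit with it was made as well. Genes with a Benjamini-Hochberg adjusted p under 0.05 were called. SE are on the log2 scale. The labels do not say that replicates were separate animals, so the p-values rest on the spread between libraries. In the main fits this spread was estimated over all 16 eWAT libraries, or over the 31 libraries of both tissues. Named genes were those called, the 5 in each direction without overlap and with the smallest p that were not called, up to 4 members per list with the smallest p, the 5 in each direction called without Veh HPD replicate 3, and those called in the interaction or tissue difference. Members, lists and this rule were chosen with earlier results of these data known. Alternatives used DESeq2 1.42.0 and limma 3.58.1 (voom). The statistics were run on simulated data whose planted changes were larger than those of the called genes and in which no library deviated. Calls of the size seen here were therefore not tested by simulation.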

Additional observations from a re-analysis of the deposited data

Results flagged for a closer look

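In 4 of 52 sets of 4 values, 1 library lay far from the other 3 by Dixon's test, where chance gives about 1 in 20. Hfe was at 63.2 CPM in Veh HPD replicate 3, the highest of its group. The mesothelial markers summed to 282 CPM and the neutrophil markers to 39.6 CPM in Veh NPD replicate 1. The endothelial markers summed to 1127 CPM in Veh NPD replicate 3.

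The diet effect differed between Cort and Veh eWAT in H2-Ab1, with a difference of 1.40 on the log2 scale, and in Syn2, with a difference of -1.28. The diet effect in Veh eWAT minus that in Veh liver was 2.40 for Csad, -1.54 for Gapdh, -1.21 for Ctsl, -1.92 for Nbdy, -1.27 for Cryzl2, -3.59 for Atf3 and -0.96 for Vamp3. Vamp3 was named here because it was called, outside the rule for named genes.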

How the results depend on the processing

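The 9 calls between the diets became 16 without scaling factors, 30 without the filter on low counts, 126 with DESeq2, 24 with limma voom, 54 with limma voom and quality weights, 4 with only the 8 Veh libraries and 39 without the libraries Veh HPD 4 and Cort HPD 4. Leaving out 1 library at a time gave 5 to 64 calls. The 2 interaction calls became 0 without scaling factors, 4 without the filter, 14 with DESeq2, 0 with limma voom, 0 with quality weights and 1 without the libraries Veh HPD 4 and Cort HPD 4, and 0 to 6 when 1 library was left out. The 7 calls of the tissue difference became 11 without scaling factors, 78 with DESeq2, 12 with quality weights, and 4 to 23 when 1 library was left out. With the replicate number as a block, 9 genes were called between the diets, 7 of them among the 9, and 9 in the interaction. The numbers were not taken as a pairing, since same-numbered libraries had correlations of -0.0256 to 0.0642 over 4 pairs, and 1 of 4 correlated best with its own number. None of the 141 genes fitted under the alternatives changed direction. Most of these genes were picked for small p-values in this same comparison, and the alternatives share most libraries. A change of direction was therefore unlikely from the start. Among the gene lists, cell type markers not counted, the medians of 12 of 28 changed sign under at least 1 alternative. All 12 were between -0.08 and 0.13 with all libraries. The fits without scaling factors, without both libraries 4, without single Cort libraries, with summed near-identical copies and with a block in the 8 Veh libraries, and all alternatives of the Cort diet count, were chosen after seeing the data, and the cause of these changes was not tested. Levels of a few CPM rest on few counts, which limits the fold changes there.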
